A study of Homo sapiens with 68 samples.

Results

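The 10 genes described here, TAGLN, ACTA2, CNN1, CNN2, TPM1, TPM2, TPM4, MYL9, CALD1 and VIM, encode proteins of the contractile apparatus and cytoskeleton of smooth muscle. They form a list of gene names that uses no threshold on these signals, drawn up with earlier results of these data known, from the 11882 genes that had a probe set with 1 gene symbol. Each gene was read from its probe set of highest mean signal among the 22215 probe sets tested. Expression was measured in A673 cells, a Ewing sarcoma line that carries the EWS/FLI fusion, in a study that asked whether ARA-C, the leading compound of an expression-based screen, alters the program driven by EWS/FLI, with other cytotoxic compounds beside it. The cells received DMSO (vehicle), ARA-C, doxorubicin or puromycin, and RNA was taken at 24 h, day 3 and day 5 for Affymetrix oligonucleotide arrays in the 96-well plate format. Cytarabine, called ARA-C here as in the study, is a false nucleoside that stops DNA chains from growing. Doxorubicin intercalates into DNA and poisons topoisomerase II, and puromycin ends the growth of the peptide chain on the ribosome.

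Each compound was given at its EC50, the dose that left 50% viability on day 3, and at 2 times the EC50. These doses were 170 and 340 nM for ARA-C, 59.88 and 119.76 nM for doxorubicin and 90 and 180 nM for puromycin. Vehicle groups held 6 arrays at 24 h, 5 at day 3 and 6 at day 5. Treated groups held 3 arrays each, except doxorubicin at 2 times the EC50 on day 5 with 2 arrays, puromycin at the EC50 on day 5 with 2 and puromycin at 2 times the EC50 on day 5 with 1. One further array, puromycin at the EC50 on day 5, replicate 3, was left out because it held blood transcripts (HBB, beta globin, at 30546) and little of the Ewing marker NKX2-2 (156). All arrays come from this 1 cell line, so they show A673 cells and no other line.

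Smooth muscle contracts when myosin II pulls on actin filaments that are coated by tropomyosin and regulated by calponin and caldesmon. Many genes of this machinery are switched on by serum response factor (SRF) with its cofactors of the myocardin family, which bind a DNA element called the CArG box in their promoters and follow the state of the actin cytoskeleton. Cells that are not muscle, fibroblasts and tumour cells of mesenchymal type among them, also express several of these genes, and TAGLN in particular is used as a marker of mesenchymal and contractile state.

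The promoter stretches printed here show where letters of the CArG box lie in front of the members, since this element is the best known shared feature of contractile gene promoters. RefSeq promoter windows of GRCh38.p14, from 250 bases before to 50 after each start, were at hand for 8 of the 10 members and not for TAGLN and MYL9. Of these 8, CNN2 and TPM4 held an exact box, and ACTA2 and CALD1 a box with 1 inner letter other than A or T. CNN2 has 1 window, and the boxes lay in 1 window of 3 for TPM4, of 2 for ACTA2 and of 4 for CALD1. These are counts of genes, whereas the shares that follow are of windows. Among all 35116 windows, 1.29% held an exact box and 8.13% a box with up to 1 such letter. The general pattern of the box, and not each printed sequence, reads the same on both strands. The letters of each box are in capitals, 5′ to 3′ on the strand of the gene.
CNN2 (chr19:1026499-1026548, plus strand, box 89 bases before the start, exact): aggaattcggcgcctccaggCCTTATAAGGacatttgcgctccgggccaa
TPM4 (chr19:16067345-16067394, plus strand, box 173 bases before the start, exact): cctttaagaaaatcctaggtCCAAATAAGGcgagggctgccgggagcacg
ACTA2 (chr10:88952865-88952914, minus strand, box 121 bases before the start, 1 inner letter off): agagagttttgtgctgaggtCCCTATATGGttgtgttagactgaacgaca
ACTA2 (chr10:88952815-88952864, minus strand, box 71 bases before the start, 1 inner letter off): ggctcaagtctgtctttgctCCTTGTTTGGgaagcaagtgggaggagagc
CALD1 (chr7:134711453-134711498, plus strand, box 26 bases before the start, 1 inner letter off): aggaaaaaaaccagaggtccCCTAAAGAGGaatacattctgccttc
A match of letters is a description of the sequence and not a bound site. No occupancy was measured here.

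Signals are MAS5 intensities on a linear scale, each array scaled to a common mean. They compare arrays for 1 probe set and do not rank genes against each other. Values under an intensity of 10 were set to 10 before log2, so changes of the dim members MYL9 (13 arrays under 10) and CNN1 (15 arrays) are understated where arrays lie under this floor. A change is a log2 difference from the vehicle arrays of the same time, days 3-5 averages the difference on day 3 with that on day 5, and a gene was called at an adjusted p of 0.05 in 1 limma fit over 67 arrays. The 3 compounds share their vehicle arrays. RNA was measured in bulk, so fewer cells that express a gene and less RNA per cell cannot be told apart.

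The position of each array on the plate matters for these genes. Rows G-H of the plate held vehicle replicates 4 to 6, every ARA-C array at 2 times the EC50 and the lone puromycin array at 2 times the EC50 on day 5. All other arrays, vehicle replicates 1 to 3 among them, were in rows A-F. On day 3, vehicle arrays of rows G-H were lower than those of rows A-F for TAGLN (log2 difference -1.50, SE 0.29, limma adjusted p = 0.00299) and for TPM1 (-1.02, SE 0.14, adjusted p = 1.29e-05). Changes are therefore also given against vehicle arrays of the same rows. The ratio of the 3′ to the 5′ ACTB control probe sets, which rises as RNA degrades, differed between groups and plate parts. Its log2 value at day 5 was 1.92 to 2.08 in vehicle arrays of rows A-F and 0.53 to 0.66 in those of rows G-H, and its median at the EC50 was 3.17 with ARA-C, 2.39 with doxorubicin and 2.28 with puromycin. At 24 h its median was 0.79 in vehicle, and at the EC50 1.99 with ARA-C, 1.67 with doxorubicin and 1.93 with puromycin. At 2 times the EC50 it was 0.61, 1.94 and 1.17 at 24 h, in the same order. Its day 5 values at 2 times the EC50 ran from 1.25 to 1.99 with ARA-C and from 4.1 to 5.0 with doxorubicin. The lone puromycin array of that dose and day had 4.13. In 3 arrays few values lay under 10, namely ARA-C EC50 day 3 replicate 3 (0.221%), ARA-C 2 times EC50 at 24 h replicate 2 (0.941%) and the puromycin 2 times EC50 array of day 5 (5.8%), against a median of 19.9%.

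In vehicle-treated cells, several contractile genes fell steeply with time in culture. Of the 10 members, 5 were lower on day 5 than at 24 h (TAGLN, MYL9, TPM1, CNN2 and TPM2) and CNN1 was higher. Of all probe sets 23.9% were called (13.2% higher and 10.7% lower). TAGLN, which encodes the actin-binding protein transgelin (SM22-alpha, chr11:117199294-117207465 of GRCh38.p14), had signals from 1188 to 1992 at 24 h (median 1669, n = 6). On day 3 they were 1427 and 972 in rows A-F and 368, 388 and 507 in rows G-H. On day 5 they were 115 to 164 (median 133.4, n = 6). The groups of 24 h and day 5 did not overlap, and TAGLN was 11.6-fold lower on day 5 (log2 difference -3.54, SE 0.23, adjusted p = 2.81e-18), with log2 differences of -3.67 within rows A-F and -3.40 within rows G-H.

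MYL9, the regulatory light chain of myosin II whose phosphorylation turns the motor on (chr20:36541519-36551447), went from 63.1 to 195 at 24 h (median 138) to 2.32 to 44.2 on day 5 (median 11.6), 8.13-fold lower (SE 0.39 on the log2 scale, adjusted p = 9.65e-09). Within rows A-F MYL9 was 16.3-fold lower and within rows G-H 4.04-fold, both called. TPM1, a tropomyosin that lies along the actin filament (chr15:63042747-63071915), went from 6669 to 8381 (median 7110) to 1595 to 2807 (median 1840), 3.57-fold lower (SE 0.13 on the log2 scale, adjusted p = 2.64e-16). Neither gene's day 5 arrays reached its lowest 24 h array. CNN2, the calponin of non-muscle cells, changed by -0.75 (SE 0.13) and TPM2 by -0.51 (SE 0.09). The CNN2 fall was -1.15 in rows A-F and not called within rows G-H (-0.36). CNN1, the calponin of differentiated smooth muscle, was dim throughout (median 9.96 at 24 h and 67.4 on day 5), and its rise of 2.10 (SE 0.52, adjusted p = 0.0014) was not called within rows A-F (1.28). ACTA2, smooth muscle alpha-actin (chr10:88935074-88991337), changed by 0.15 (adjusted p = 0.352), a mean over opposite differences of -0.41 (adjusted p = 0.00255) in rows A-F and 0.72 (adjusted p = 5.61e-08) in rows G-H.

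**Figure D1:**
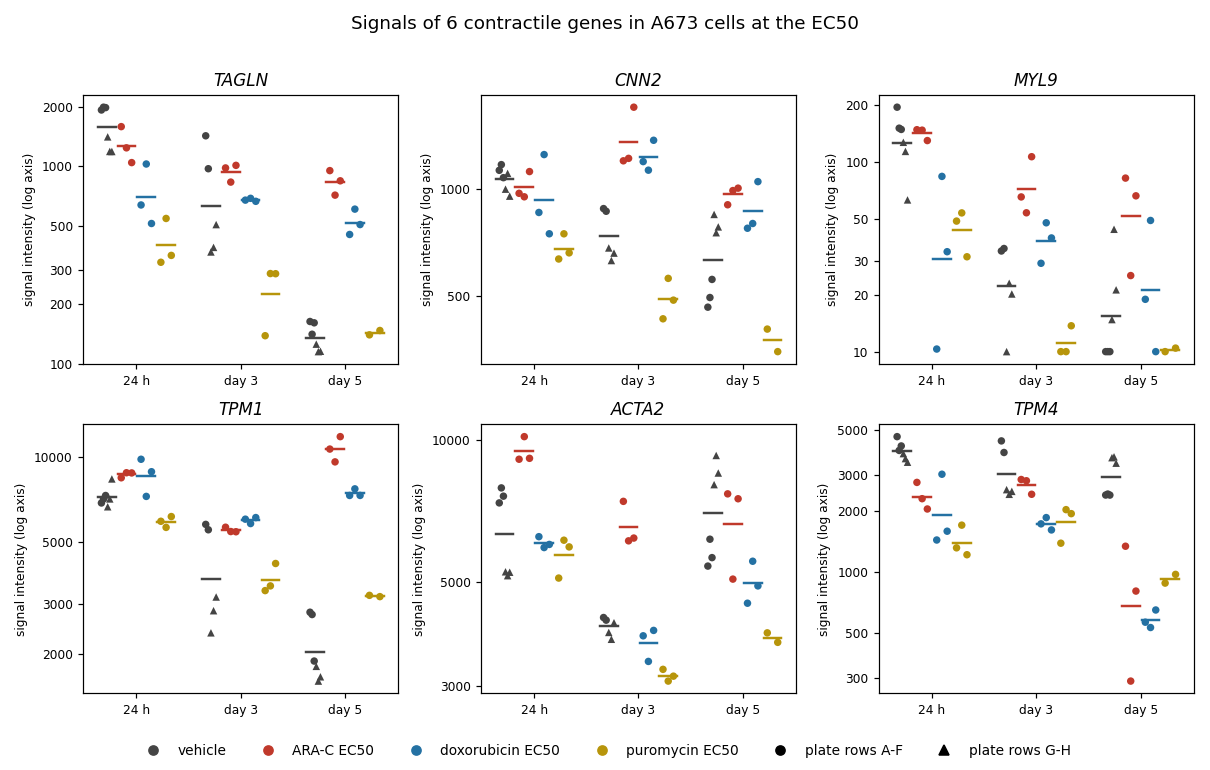
Signal of 6 member genes (log axis, intensities under 10 drawn at 10) by treatment and time; each point is 1 array, circles lie in plate rows A-F, triangles in rows G-H, and bars are geometric means. Vehicle arrays of TAGLN fall from 1188 to 1992 at 24 h to 115 to 164 on day 5, while the ARA-C EC50 arrays of day 5 sit between 714 and 951.

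Against this falling baseline, ARA-C at the EC50 left 8 members higher than vehicle over days 3-5, doxorubicin 5 and puromycin 0. With ARA-C 8 of 10 members were higher and 1 lower, where 49.7% of all probe sets were called (18.3% higher and 31.4% lower). The median change of the members was 0.53 against 0.03 over all probe sets (0.28 on day 3 and -0.28 on day 5). Doxorubicin gave 5 higher and 3 lower (41.4% of all probe sets called, 14.2% higher and 27.2% lower, medians 0.50 and -0.07). Puromycin gave 0 higher and 5 lower (18.3% called, 4.84% higher and 13.5% lower, medians -0.64 and -0.10). Against vehicle arrays of the same rows the counts were 6 higher and 1 lower for ARA-C (41% called), 4 higher and 2 lower for doxorubicin (34.9% called) and 0 higher and 5 lower for puromycin (9.07% called).

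TAGLN was higher than vehicle with ARA-C and doxorubicin and lower with puromycin. Its ARA-C EC50 arrays read 981, 832 and 1011 on day 3 and 951, 714 and 844 on day 5. The doxorubicin arrays read 674, 688 and 665 on day 3 and 452, 607 and 507 on day 5. Every day 5 array of these 2 compounds lay above every vehicle array of day 5, whereas on day 3 the treated arrays lay between the vehicle arrays of rows G-H and those of rows A-F or overlapped the latter. Over days 3-5 TAGLN was 3.02-fold higher with ARA-C (log2 change 1.59, SE 0.20, adjusted p = 2.5e-09) and 2.02-fold higher with doxorubicin (1.01, SE 0.20, adjusted p = 3.62e-05). Against vehicle of rows A-F alone these were 1.05 (SE 0.19, adjusted p = 1.21e-05) and 0.47 (SE 0.19, adjusted p = 0.052), so that the doxorubicin call was lost.

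The difference in TAGLN was that of day 5. With ARA-C the change against vehicle of the same rows was -0.33 (SE 0.29, adjusted p = 0.457) on day 3 and 2.42 on day 5 (5.36-fold, SE 0.26, adjusted p = 3.24e-11). With doxorubicin it was -0.80 (adjusted p = 0.0465) on day 3, lower than vehicle, and 1.74 on day 5, which was called. Between 24 h and day 5 the vehicle signal fell 11.6-fold while the ARA-C signal went from 1044 to 1588 down to 714 to 951. By these single days, ARA-C had 2 members higher and 0 lower on day 3 (10.3% of all probe sets called) and 4 higher and 1 lower on day 5 (41.7%). Doxorubicin had 2 higher and 2 lower on day 3 (16%) and 5 higher and 1 lower on day 5 (32.7%).

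Puromycin lowered TAGLN early. Its EC50 arrays read 327, 544 and 354 at 24 h, 139, 286 and 286 on day 3 and 140 and 147 on day 5. All arrays of 24 h and day 3 lay below every vehicle array of their time, and the 2 of day 5 lay within the vehicle range. Over days 3-5 the change was -0.70 (SE 0.22, 1.63-fold lower, adjusted p = 0.0169), and against vehicle of the same rows -1.25 (SE 0.20, adjusted p = 1.22e-05), which was -2.39 on day 3 and -0.11 on day 5. The first of these calls was lost without puromycin EC50 day 3 replicate 1 (-0.53, adjusted p = 0.11), day 5 replicate 1 (adjusted p = 0.082) or day 5 replicate 2 (adjusted p = 0.063), and after quantile normalization (-0.38) or a shift to a common median (-0.36). By single days against vehicle of the same rows, puromycin had 0 members higher and 5 lower on day 3 (3.3% of all probe sets called) and 0 higher and 2 lower on day 5 (4.9%). Against all vehicle arrays, TPM1 (0.66, SE 0.19, adjusted p = 0.00981) and TPM2 (0.39, SE 0.13, adjusted p = 0.0278) were called higher with puromycin on day 5, where 17.4% of all probe sets were called. With a shift to a common median both were also called higher over days 3-5 (0.67, adjusted p = 0.00179, and 0.48, adjusted p = 0.00644).

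**Figure D2:**
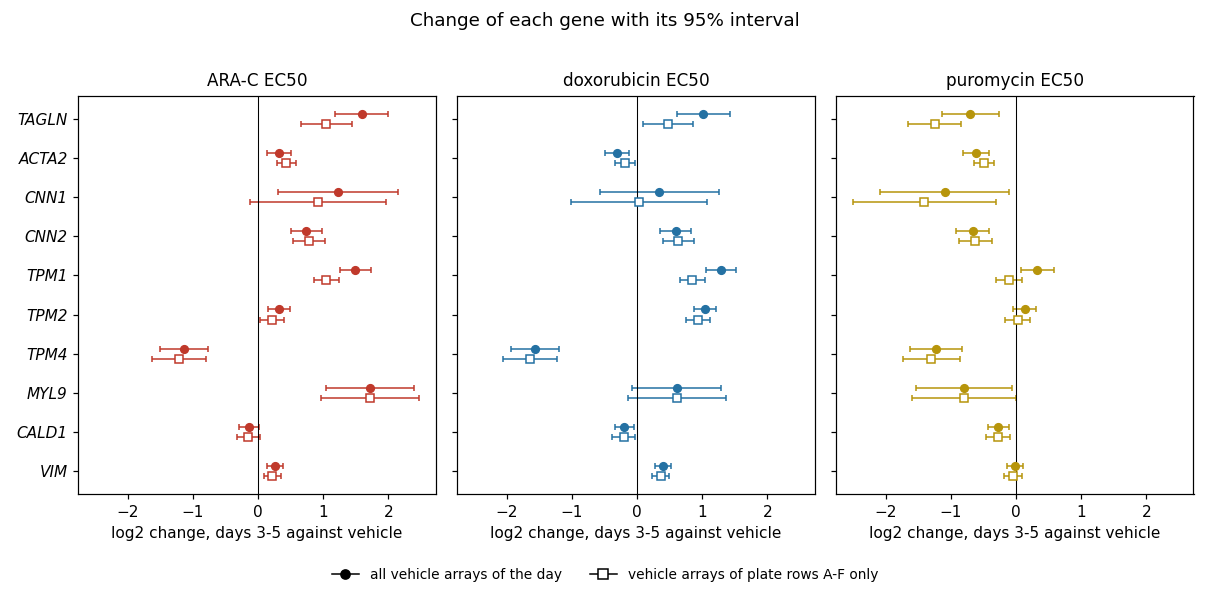
Log2 change over days 3-5 at the EC50 for each member gene (x axis, log2 difference from vehicle) under the 3 compounds, with 95% intervals from limma; filled points use all vehicle arrays and open squares only those of rows A-F. TPM1 and TAGLN lie to the right of 0 with ARA-C (1.49 and 1.59), TPM4 lies to the left of 0 with all 3 compounds, and the open squares of TAGLN are lower than its filled points throughout.

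The calponins bind actin and restrain the myosin motor. CNN2 (chr19:1026608-1039065), whose promoter holds the exact box printed above, read 879, 864, 682, 629 and 660 in day 3 vehicle arrays. ARA-C arrays of that day read 1196, 1215 and 1689 and doxorubicin arrays 1190, 1126 and 1365, all above vehicle. Puromycin arrays of that day read 433, 561 and 488, all below it. On day 5 CNN2 vehicle arrays ran from 466 to 847 (median 655), and 557 was the highest in rows A-F. The day 5 arrays of ARA-C (901, 988 and 1003) lay above all of these, and those of doxorubicin (775, 799 and 1046) above those of rows A-F. Over days 3-5 CNN2 changed by 0.74 (SE 0.12, adjusted p = 3.83e-07) with ARA-C, 0.59 (SE 0.12, adjusted p = 2.93e-05) with doxorubicin and -0.67 (SE 0.13, adjusted p = 7.93e-05) with puromycin. Values against vehicle of the same rows were 0.78, 0.63 and -0.63, all called.

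CNN1 (chr19:11538851-11550323) was called higher over days 3-5 only with ARA-C (1.23, SE 0.46, adjusted p = 0.0223), from 47.5, 88.5 and 131 on day 3 and 146, 65.6 and 107 on day 5. Its vehicle arrays ran from 5.26 to 62.0 on day 3 and from 27.4 to 118 on day 5, so the groups overlapped on both days. The call was lost against vehicle of the same rows (0.92, adjusted p = 0.155) and without ARA-C EC50 day 3 replicate 3, an array with few low values (1.06, adjusted p = 0.0904 without the 3 arrays of that kind, a choice made after seeing the data). It was also lost without vehicle day 3 replicate 6 or ARA-C EC50 day 5 replicate 1. Doxorubicin gave CNN1 0.34 (adjusted p = 0.627) and puromycin -1.10 (adjusted p = 0.121).

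The tropomyosins moved apart from each other. TPM1 rose with both compounds that act on DNA: on day 5 its vehicle arrays of rows A-F read 2807, 2754 and 1880 and those of rows G-H 1595, 1652 and 1800. ARA-C arrays read 10710, 9641 and 11860 and doxorubicin arrays 7318, 7726 and 7320, all above vehicle by a wide margin. On day 3, ARA-C (5639, 5442 and 5433) and doxorubicin (6024, 5811 and 6104) stood next to the vehicle arrays of rows A-F (5772 and 5522) and above those of rows G-H (2370, 2842 and 3180). Over days 3-5 TPM1 was 2.81-fold higher with ARA-C (1.49, SE 0.12, adjusted p = 1.66e-15) and 2.44-fold higher with doxorubicin (1.29, SE 0.12, adjusted p = 1.03e-13). Against vehicle of the same rows these were 1.05 (SE 0.09) and 0.85, both called. The single days with ARA-C against the same rows were -0.04 (adjusted p = 0.886) on day 3 and 2.13 (4.38-fold, SE 0.13, adjusted p = 3.46e-19) on day 5. Puromycin gave TPM1 0.33 (SE 0.13, adjusted p = 0.0662) with all vehicle arrays and -0.12 (adjusted p = 0.64) with those of the same rows.

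TPM2 (chr9:35681993-35690056), the beta tropomyosin, rose more with doxorubicin than with ARA-C. Doxorubicin arrays read 7809, 8721 and 8679 on day 3 and 8253, 9514 and 8637 on day 5, all above every vehicle array (4647 to 5240 and 2959 to 4220). ARA-C arrays read 6706, 5935 and 5851 on day 3 and 5482, 3020 and 5105 on day 5, where the array at 3020 lay inside the vehicle range. The changes were 1.04 (2.06-fold, SE 0.08, adjusted p = 3.22e-16) and 0.32 (SE 0.08, adjusted p = 0.000904), and against vehicle of the same rows 0.94 and 0.21 (adjusted p = 0.0545). Puromycin gave 0.13 (adjusted p = 0.357).

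TPM4 (chr19:16067538-16103002), a tropomyosin of non-muscle cells, was lower with all 3 compounds in its brightest probe set. Its day 5 vehicle arrays ran from 2394 to 3694 (median 2929). ARA-C arrays read 1341, 291 and 807, doxorubicin arrays 567, 534 and 651, and puromycin arrays 883 and 975, all below vehicle. Over days 3-5 TPM4 was 2.21-fold lower with ARA-C (-1.15, SE 0.18, adjusted p = 5.34e-07), 2.98-fold lower with doxorubicin (-1.58, SE 0.18, adjusted p = 2.06e-10) and changed by -1.23 (SE 0.20, adjusted p = 5.19e-06) with puromycin. Against vehicle of the same rows these were -1.22, -1.65 and -1.30, all called.

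This fall was not seen in the other TPM4 probe set with ARA-C or doxorubicin. That probe set changed by 0.03 with ARA-C and 0.07 with doxorubicin, neither called, and by -0.59 (SE 0.09, adjusted p = 3.03e-06) with puromycin. The brightest TPM4 probe set moved with the 3′ to 5′ ratio of ACTB (Pearson r = -0.834 over 67 arrays that share treatment groups, and -0.526 over the 17 vehicle arrays), and the array with the highest log2 ratio, 5.07, is the ARA-C array with TPM4 at 291. For the other TPM4 probe set r was -0.245 over the 67 arrays and -0.603 over the 17 vehicle arrays. Among day 5 vehicle arrays the brightest TPM4 probe set read 2394 to 2422 in rows A-F, where the ratio was higher, and 3436 to 3694 in rows G-H. Among the remaining members r over the 67 arrays ran from -0.566 (CALD1) to 0.299 (CNN1), with TAGLN at -0.194 and TPM1 at 0.271. Over the 17 vehicle arrays it ran from -0.58 (CNN2) to 0.276 (VIM), with MYL9 at -0.394, TAGLN at -0.383 and TPM1 at -0.165. The part of this ratio in the results of TPM4 and of the other members was not tested.

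**Figure D3:**
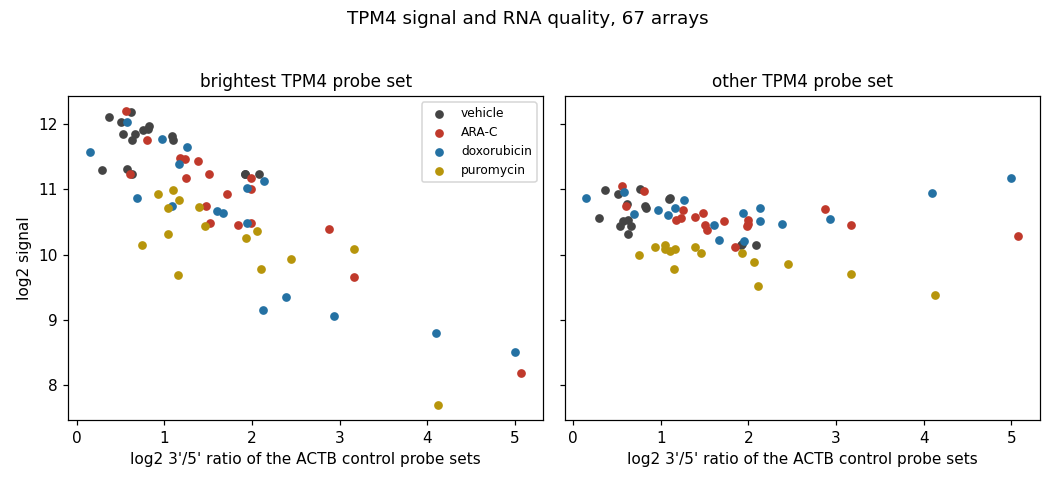
Log2 signal of the brightest and of the other TPM4 probe set (y axis) against the log2 ratio of the 3′ to the 5′ ACTB control probe sets (x axis), 1 point per array for 67 arrays. Over all 67 arrays the brightest probe set falls as the ratio rises (r = -0.834), and the other does so much less (r = -0.245). Over the 17 vehicle arrays r is -0.526 for the brightest and -0.603 for the other.

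ACTA2, MYL9 and CALD1 are the actin, the motor's light chain and the caldesmon that links actin to myosin. ACTA2 arrays on day 3 read 4197, 4143, 3901, 3772 and 4091 in vehicle, 7419, 6113 and 6197 with ARA-C, 3837, 3384 and 3940 with doxorubicin and 3255, 3073 and 3148 with puromycin. ARA-C lay above and puromycin below all vehicle arrays of that day, and doxorubicin overlapped them. On day 5 vehicle ran from 5401 to 9291 (median 7108), and from 5401 to 6162 in rows A-F. The ARA-C arrays at 7697 and 7514 lay within the full range, and that at 5067 lay below it. Mean log2 signals were 12.7 with ARA-C and 12.78 in all vehicle arrays on day 5, and 12.68 and 11.97 on day 3. Over days 3-5 ACTA2 changed by 0.31 (SE 0.09, adjusted p = 0.00383) with ARA-C, -0.31 (SE 0.09, adjusted p = 0.005) with doxorubicin and -0.62 (SE 0.10, adjusted p = 5.07e-06) with puromycin. Values against vehicle of the same rows were 0.43, -0.19 (adjusted p = 0.047) and -0.50. The doxorubicin call for ACTA2 was lost after quantile normalization (-0.21) and with a common median (-0.14), and the puromycin call with a common median (-0.27). With the mean of all probe sets of the gene none of the 3 was called (0.15, -0.06 and -0.48).

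MYL9 read 65.5, 54.0 and 107 on day 3 and 82.3, 25.2 and 66.3 on day 5 with ARA-C. Vehicle ran from 5.76 to 34.99 on day 3, below all ARA-C arrays, and from 2.32 to 44.2 on day 5, where the ARA-C array at 25.2 overlapped it. MYL9 was 3.29-fold higher with ARA-C (1.72, SE 0.34, adjusted p = 2.59e-05), and the value against vehicle of the same rows was also 1.72 (SE 0.38, adjusted p = 0.000187). With doxorubicin MYL9 read 29.2, 47.8 and 39.8 on day 3 and 18.9, 49.2 and 2.16 on day 5, a change of 0.61 (adjusted p = 0.157) that was called without doxorubicin EC50 day 5 replicate 3 (0.88, adjusted p = 0.044). Puromycin gave -0.80 (adjusted p = 0.128).

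CALD1 (chr7:134711499-134970729) changed little in its brightest probe set: -0.14 (adjusted p = 0.103) with ARA-C, -0.20 (SE 0.07, adjusted p = 0.022) with doxorubicin and -0.27 (SE 0.08, adjusted p = 0.0103) with puromycin. The doxorubicin call was lost against vehicle of the same rows (-0.21, adjusted p = 0.0561) and without doxorubicin EC50 day 3 replicate 1 or day 5 replicate 2, and the puromycin call without puromycin EC50 day 5 replicate 1. VIM (chr10:17228241-17237593), the intermediate filament protein vimentin of mesenchymal cells, had a mean signal of 15296 over the arrays. Its vehicle arrays ran from 14110 to 15840 on day 3 and from 12830 to 15480 on day 5. VIM rose by 0.25 (SE 0.06, adjusted p = 0.000344) with ARA-C and by 0.40 (SE 0.06, adjusted p = 1.45e-07) with doxorubicin, whose arrays lay between 17790 and 20500 over both days. Puromycin gave VIM -0.02 (adjusted p = 0.943). The VIM call with ARA-C was lost after quantile normalization (0.10).

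At 24 h the picture was another. ARA-C had 2 members higher and 2 lower (14.4% of all probe sets called), doxorubicin 0 higher and 3 lower (5.27%) and puromycin 0 higher and 5 lower (10.5%). By direction these shares were 5.42% higher and 8.97% lower, 2.52% and 2.75%, and 2.09% and 8.41%. TAGLN was not called with ARA-C (-0.31, SE 0.28, adjusted p = 0.568). It was lower with doxorubicin (637, 1027 and 513, 2.26-fold, SE 0.28 on the log2 scale, adjusted p = 0.00621, but -0.96 and adjusted p = 0.12 without doxorubicin EC50 24 h replicate 3) and with puromycin (3.96-fold, SE 0.28 on the log2 scale, adjusted p = 2.24e-06), and all 6 of these arrays lay under the lowest vehicle array at 1188. MYL9 was 4.09-fold lower with doxorubicin (SE 0.47 on the log2 scale, adjusted p = 0.0045), with arrays at 10.3, 84.0 and 33.7 that overlapped the vehicle range. Without doxorubicin EC50 24 h replicate 1, the array at 10.3, the MYL9 change was -1.24 and not called (adjusted p = 0.211). With puromycin MYL9 changed by -1.53 (SE 0.47, adjusted p = 0.0266), a call lost without puromycin EC50 24 h replicate 1 (-1.61, adjusted p = 0.0814) or 3 (-1.30, adjusted p = 0.184) or vehicle 24 h replicate 1 (-1.40, adjusted p = 0.0634). ARA-C raised ACTA2 by 0.59 (SE 0.13, adjusted p = 0.000944) and CNN1 by 1.95 (SE 0.64, adjusted p = 0.0292), the latter not called against vehicle of the same rows (1.70) or without any 1 of the 3 ARA-C arrays (1.88 to 2.00). The brightest TPM4 probe set was lower with all 3 compounds at this time (-0.74, -1.04 and -1.49). The ARA-C call was lost without ARA-C EC50 24 h replicate 2 (-0.73) or 3 (-0.64) or vehicle 24 h replicate 1, 2, 3 or 4. It was also lost with a floor of 32, no intensity trend or a replicate block. The doxorubicin call was lost without doxorubicin EC50 24 h replicate 1 (-0.84) or 3 (-0.91). The median log2 3′ to 5′ ratio of ACTB was 1.99, 1.67 and 1.93 in these groups, against 0.79 in vehicle (0.51 to 1.10). In the doxorubicin replicates 1, 2 and 3 the ratio was 1.95, 0.15 and 1.67. TAGLN read 637, 1027 and 513 and MYL9 10.3, 84.0 and 33.7 in that order, both highest in replicate 2. The part of this ratio in the results of TPM4, TAGLN and MYL9 was not tested. Also lower were CNN2 with puromycin (-0.65) and VIM with ARA-C (-0.26) and puromycin (-0.31). Neither VIM call held against vehicle of the same rows (-0.13 and -0.18).

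Whether the change over days 3-5 differed from that at 24 h was tested as an interaction. With ARA-C it was higher for 4 members, TAGLN, CNN2, TPM1 and VIM, and lower for 0 (13.9% of all probe sets called, 3% higher and 10.9% lower). With doxorubicin it was higher for 6, those 4 with TPM2 and MYL9, and lower for 0 (19.1% called, 5.82% higher and 13.3% lower). Against vehicle of the same rows the doxorubicin value for VIM was not called (0.29, adjusted p = 0.0787), and the ARA-C value for MYL9 was (1.93, adjusted p = 0.0446). With puromycin it was higher for TAGLN alone (1.28, SE 0.36, adjusted p = 0.0419) and lower for 0 (1.97%), and this call was lost against vehicle of the same rows (1.06). For TAGLN the differences were 1.90 (SE 0.35) with ARA-C and 2.19 (SE 0.35) with doxorubicin, and these TAGLN values rest on vehicle levels that fell with time.

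**Figure D4:**
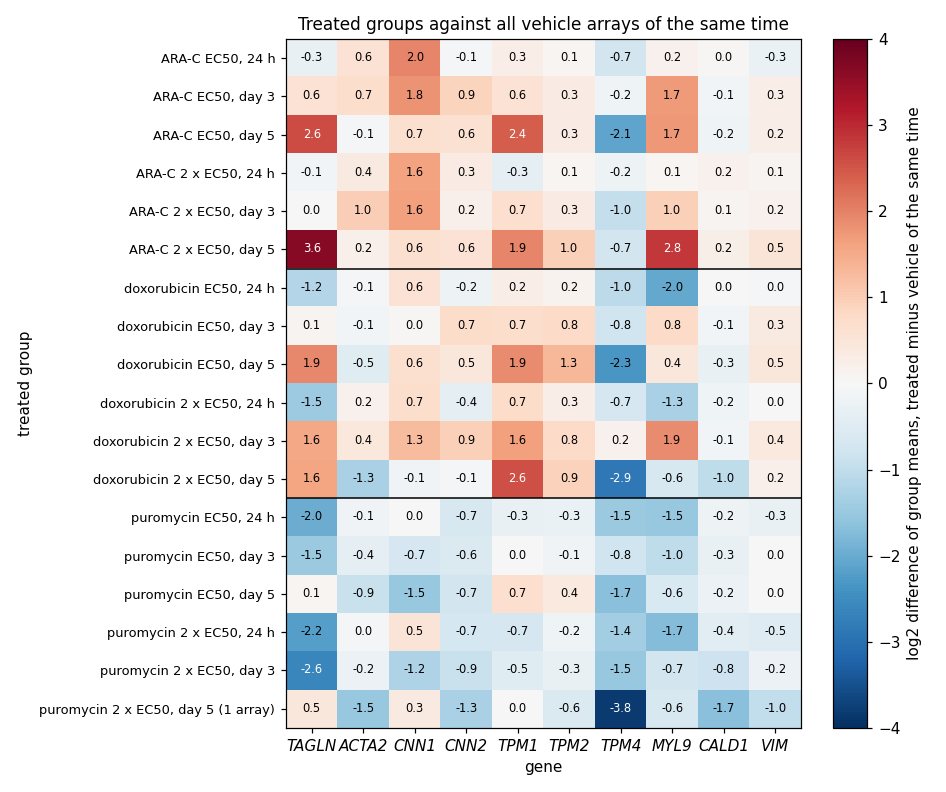
Log2 difference of group means from the vehicle arrays of the same time (colour scale from -4 to 4, value printed in each cell) for the 10 member genes in the 18 treated groups. TAGLN runs from -2.62 with puromycin at 2 times the EC50 on day 3 to 3.63 with ARA-C at 2 times the EC50 on day 5; the puromycin group at 2 times the EC50 on day 5 is a single array.

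The compounds were then set against each other at the EC50 over days 3-5, where the vehicle arrays cancel (3 pairs, each adjusted over all probe sets). The doses are matched by viability and not by concentration. ARA-C minus doxorubicin gave 2 members higher and 1 lower (25.2% of all probe sets called): ACTA2 by 0.62 (SE 0.10, adjusted p = 8.16e-06), MYL9 by 1.11 (SE 0.39, adjusted p = 0.0279) and TPM2 by -0.72 (SE 0.09, adjusted p = 2e-08). The MYL9 call was lost after quantile normalization (0.92) and with a floor of 1 (1.48), and the ACTA2 and TPM2 calls with the mean of all probe sets of a gene (0.21 and -0.22). The TAGLN difference of 0.58 (95% interval 0.12 to 1.04, adjusted p = 0.0576) was not called. It passed in 5 of the alternatives, those with plate part as a block (adjusted p = 0.0222), a replicate block (adjusted p = 0.0287), quantile normalization (adjusted p = 0.00884), dim probe sets left out (adjusted p = 0.0398) or only the arrays of the comparison (adjusted p = 0.00554), and also in the fit with 1 mean per plate part (adjusted p = 0.0131). TPM1 differed by 0.20 (95% interval -0.07 to 0.47) and CNN2 by 0.15 (-0.12 to 0.41), neither of them called.

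ARA-C minus puromycin gave 7 members higher and 0 lower (40.5% called), and doxorubicin minus puromycin 8 higher and 0 lower (29.8% called). By direction these shares were 17.3% higher and 23.3% lower, and 12.8% and 17%. TAGLN was 4.91-fold higher with ARA-C (2.30, SE 0.24, adjusted p = 4.76e-11) and higher by 1.72 with doxorubicin (SE 0.24, adjusted p = 7.96e-08) than with puromycin. CNN2 differed from puromycin by 1.41 and 1.26, TPM1 by 1.16 and 0.96 and MYL9 by 2.52 and 1.41, in the order ARA-C and doxorubicin. With a floor of 32 the doxorubicin value for MYL9 was 0.25 and not called (adjusted p = 0.573). The 8 calls with doxorubicin include CNN1 and ACTA2, each lost without any 1 of several arrays. Examples are doxorubicin EC50 day 3 replicate 2 for CNN1 (1.14) and day 5 replicate 2 for ACTA2 (0.27). TPM2 was higher than with puromycin only with doxorubicin among the calls (0.91, against 0.19 with ARA-C). The differences for TPM4, 0.08 with ARA-C (95% interval -0.36 to 0.53) and -0.35 with doxorubicin (-0.79 to 0.09), were not called, nor were those for CALD1.

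At 2 times the EC50, ARA-C over days 3-5 had 7 members higher and 1 lower (30.2% of all probe sets called), doxorubicin 5 higher and 3 lower (50.8%), and puromycin on day 3 had 0 higher and 5 lower (11.4%). By direction these shares were 14.8% higher and 15.5% lower, 17.3% and 33.5%, and 4.32% and 7.13%. TAGLN with ARA-C read 642, 586 and 631 on day 3 and 1969, 1857 and 1291 on day 5, and its change over days 3-5 was 1.80 (3.48-fold, SE 0.20, adjusted p = 1.52e-10). Against vehicle of rows G-H, where all these arrays lay, it was 2.20 (SE 0.18). The day 5 arrays of this group reached the level of 24 h vehicle arrays, and their change against all vehicle arrays of day 5 was 3.63 (12.4-fold). With doxorubicin TAGLN read 1757, 1894 and 1932 on day 3, above all 5 vehicle arrays, and 338 and 482 on day 5, a change of 1.56 (SE 0.22, adjusted p = 1.65e-08) over both days.

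With doxorubicin at this dose TPM1 read 11670, 11830 and 10880 on day 3 and 14260 and 10080 on day 5 (4.29-fold over days 3-5, SE 0.13 on the log2 scale, adjusted p = 1.09e-20). Against vehicle of the same rows the TPM1 change was 1.66 (SE 0.10) with doxorubicin and 1.65 (SE 0.09) with ARA-C. MYL9 was higher with ARA-C (1.89, SE 0.34, adjusted p = 1.01e-05) and read 107, 73.3 and 71.3 on day 3 but 4.59 and 3.28 on day 5 with doxorubicin, for which the mean of both days was not called (0.63, adjusted p = 0.153). CALD1 fell by 0.56 with doxorubicin (SE 0.08, adjusted p = 1.82e-08) and by 0.82 with puromycin on day 3 (SE 0.11, adjusted p = 3.08e-08). With the mean of all probe sets of the gene the doxorubicin call was lost (-0.25, adjusted p = 0.0864). The log2 3′ to 5′ ratio of ACTB was 4.1 to 5.0 in the day 5 doxorubicin arrays of this dose. Its part in their values was not tested. Puromycin lowered TAGLN 6.14-fold on day 3 (111, 97.3 and 101, SE 0.29 on the log2 scale, adjusted p = 7.28e-10), below every vehicle array of that day. Against vehicle of the same rows TAGLN was 11.4-fold lower. The single puromycin array of day 5 read 188 for TAGLN and 208 for TPM4, without a replicate.

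The members have 11 further probe sets (CALD1 6, TPM1 2, ACTA2, TPM2 and TPM4 1 each). At the EC50 over days 3-5, 5 of these 11 had the sign of the brightest probe set with ARA-C, 6 with doxorubicin and 9 with puromycin. With doxorubicin 2 of them were called in the direction opposite to the call of the brightest probe set. The weaker TPM1 probe sets gave 0.31 and 1.16 with ARA-C, the latter called, and 0.81 and 0.28 with doxorubicin, the former called. The other TPM2 probe set gave 0.22 and -0.07, so that the rise of TPM2 with doxorubicin was seen in its brightest probe set alone. CALD1 probe sets disagreed: with ARA-C 1 of them was called at 1.22 and another at -1.19. Probe sets of these genes can read different transcripts, and which ones they read was not examined. Their link to the 3′ to 5′ ratio of ACTB also differed. Over the 67 arrays r ran from -0.908 to 0.425 among the further CALD1 probe sets, and was -0.618 and 0.0336 for those of TPM1. The part of this ratio in the disagreement was not tested.

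Across the 67 arrays the members rose and fell together in part, as a description over arrays that share treatment and time. TAGLN correlated with CNN2 (Pearson r = 0.813) and MYL9 (r = 0.812). Over the 21 group means, r to TAGLN was 0.88 for MYL9, 0.86 for CNN2 and 0.73 for TPM1, and it was lowest for CNN1 at 0.33. The 5 genes outside the members and their related lists whose group means ran most like TAGLN were SYNPO (synaptopodin, an actin-associated protein, r = 0.87), DKK1 (a secreted Wnt antagonist, r = 0.87), ANKRD1 (an ankyrin repeat protein of muscle, r = 0.86), MGLL (monoglyceride lipase, r = 0.84) and S1PR1 (a receptor for sphingosine 1-phosphate, r = 0.84). Of these, ANKRD1 changed by 2.53 with ARA-C, 1.96 with doxorubicin and 0.07 with puromycin over days 3-5, and by -3.30 from 24 h to day 5 in vehicle.

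Other genes of the same machinery moved in both directions over days 3-5 at the EC50. Their counts stand beside a background of 49.7% of all probe sets called with ARA-C, 41.4% with doxorubicin and 18.3% with puromycin. With ARA-C, counts in either direction for TGF-beta signaling (5 of 9) and actin cross-linking and focal adhesion (5 of 12) are near it. Those for SRF and its cofactors (1 of 3) and for the defining genes of smooth muscle (1 of 6) lie under it. By direction, 18.3% of all probe sets were called higher with ARA-C and 31.4% lower. The 5 genes called for actin cross-linking and focal adhesion were all higher, and those for TGF-beta signaling were 2 higher and 3 lower. Of SRF and its cofactors, 3 of 4 were measured, with 0 higher and 1 lower with ARA-C, 0 and 2 with doxorubicin and 0 and 0 with puromycin. MRTFB changed by -0.68 with ARA-C and -0.95 with doxorubicin. Of 7 relatives of the actins, tropomyosins and calponins, 5 were higher and 1 lower with ARA-C and 4 higher and 0 lower with doxorubicin, among them TAGLN3 (1.75 and 1.70) and TAGLN2 (0.46 and 0.63), and none was called with puromycin. CNN3 was the relative that fell with ARA-C (-0.57).

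Of 10 genes of the myosin II motor and its control, 2 were higher and 5 lower with ARA-C, 3 and 5 with doxorubicin and 1 and 2 with puromycin. The kinase gene ROCK1, which promotes light chain phosphorylation, changed by -1.06 and -0.74 with ARA-C and doxorubicin, RHOA, its activator, by -0.91 and -0.43, and MYL6, the essential light chain, by 0.77 and 0.72. Of 12 genes of actin cross-linking and focal adhesion, 5 were higher and 0 lower with ARA-C, 5 and 4 with doxorubicin and 0 and 7 with puromycin. FHL2, a LIM-domain protein of actin filaments, rose by 1.32 and 2.11 with the first 2 compounds. TGFB1I1 (Hic-5), a focal adhesion protein, changed by 1.02, -0.81 and -0.71, in the order ARA-C, doxorubicin and puromycin.

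Of 9 genes of TGF-beta signaling, which is known to raise contractile genes, 2 were higher and 3 lower with ARA-C, 2 and 3 with doxorubicin and 0 and 3 with puromycin. The ligand TGFB2 rose by 1.01 and 2.05 with ARA-C and doxorubicin, the induced matrix protein TGFBI changed by 1.52, 0.88 and -0.42, and the inhibitor SKIL by -1.50 and -1.12. TGFB1 changed by -0.51 with doxorubicin and -1.28 with puromycin. Of 8 intermediate filament genes beside VIM, 5 were higher and 2 lower with ARA-C, 5 and 1 with doxorubicin and 1 and 3 with puromycin, among them KRT8 (0.51, 1.47 and -0.91) and PRPH, peripherin (-1.42 with ARA-C and -1.41 with puromycin).

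Most of the defining genes of smooth muscle had low signals, with SMTN the highest of the 6. Median signals over the 67 arrays were 19.0 for MYH11 (smooth muscle myosin heavy chain), 26.8 for ACTG2, 22.8 for DES, 3.05 for LMOD1, 27.2 for SYNPO2 and 121 for SMTN. Their 6 signals summed to 132 to 849 on an array. Over days 3-5 at the EC50, 1 of these 6 was higher with ARA-C (SYNPO2, 1.30), 0 with doxorubicin, and 1 was lower with puromycin (SMTN, -0.70). Ewing markers had medians of 4717 for NKX2-2, 7484 for STEAP1, 5541 for CCND1, 4244 for PRKCB, 10536 for CD99 and 2653 for FLI1. The lowest signal on an array was 765 for PRKCB and 570 for FLI1. On day 5 the summed signal of the 6 measured Ewing markers was 33350 to 47320 in vehicle, 21530 to 30870 with ARA-C and 28440 to 29080 with doxorubicin at the EC50. The sum of 4 endothelial markers was 36.6 to 107 in vehicle, 275 to 302 with ARA-C and 389 to 400.5 with doxorubicin on day 5, and that of 7 fibroblast or pericyte markers 12370 to 16170, 7498 to 11690 and 11650 to 14330. In the same order, 4 epithelial markers summed to 9.74 to 52.9, 67.8 to 167 and 81.6 to 99.8, and 5 blood markers to 40.5 to 82.1, 33.5 to 134 and 120 to 186. On day 5 at 2 times the EC50 the Ewing markers summed to 36030 to 37080 with ARA-C and 17400 to 19530 with doxorubicin. Their sum was 20510 in the lone puromycin array. The part of these shifts in the changes of the members was not tested.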

How the data were processed

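The authors hybridized RNA of A673 cells to 68 Affymetrix arrays in plate format and deposited 1 intensity per probe set and array on a linear scale, made with MAS5 per the submitters' processing notes (version not given in the sources used here). Compound, dose, time and replicate came from the labels, and plate rows from the study's sample list. Of 22930 probe sets, 715 control probe sets were left out and 22215 tested. Of these, 19230 had 1 gene symbol, 125 several and 2860 none. Signals were floored at 10 without an upper limit, since VIM exceeds the 16000 of the study's methods, which was tried as an alternative. One limma 3.58.1 fit (R 4.3.3, intensity trend, prior df 8.89, residual df 46) gave group means over 67 arrays. Benjamini-Hochberg adjustment ran over all probe sets, with a threshold of 0.05. The p-values measure the spread between these samples. The steps were tested on simulated data. The number of arrays limits the precision. Figures used Python 3.11.15 and matplotlib 3.10.9.

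All 10 members were named. Of each related list, up to 4 called genes of largest change were named, and the 5 genes most like TAGLN by Pearson r of group means. The members and lists were chosen with earlier results of these data known. Alternatives were quantile normalization, a common median, floors of 1 and 32, a cap, a filter on mean signals under 100, only the arrays of a comparison, plate part or replicate number as a block, vehicle of the same rows, no trend, the mean of all probe sets of a gene, the left-out array and leaving out each array. Leaving out the 3 arrays with few low values was added after seeing the data.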

Additional observations from a re-analysis of the deposited data

Results flagged for a closer look

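With ARA-C at the EC50, the change over days 3-5 exceeded that at 24 h in the interaction test for TAGLN (1.90), CNN2 (0.82), TPM1 (1.22) and VIM (0.51, log2 scale). With doxorubicin it did so for TAGLN (2.19), CNN2 (0.79), TPM1 (1.04), TPM2 (0.89), MYL9 (2.64) and VIM (0.45), and with puromycin for TAGLN (1.28). Vehicle levels of TAGLN, CNN2, TPM1, TPM2 and MYL9 themselves fell from 24 h to day 5, and that of VIM was not called. Against vehicle of the same rows the VIM value with doxorubicin (0.29) and the TAGLN value with puromycin (1.06) were not called. The array that was left out of the fit, puromycin at the EC50 on day 5, replicate 3, stood above every vehicle array of day 5 for CNN2 (1857), TPM1 (14800) and MYL9 (150), and correlated with the others at a median r of 0.603, where the lowest such median of an array used was 0.887. In 30 checks of members in vehicle groups no array stood far from the rest of its group.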

How the results depend on the processing

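The number of members called moved by over 1.5 times in the cases below, apart from ARA-C over days 3-5, where it was 6 in place of 9 with the left-out array in the fit. With that array it was 5 for doxorubicin over days 3-5, 0 for ARA-C, 1 for doxorubicin and 2 for puromycin at 24 h, 4 for ARA-C and 5 for doxorubicin at 2 times the EC50, 3 for puromycin at 2 times the EC50 on day 3, 0 for ARA-C minus doxorubicin, and 2, 3 and 0 for the interactions with ARA-C, doxorubicin and puromycin. For ARA-C at 24 h it was 2 with a floor of 32, with plate part as a block or with vehicle of the same rows. For doxorubicin at 24 h it was 1 with only the arrays of the comparison, and for puromycin at 24 h 2 with a common median and 8 with the mean of all probe sets. For ARA-C minus doxorubicin it was 6 after quantile normalization and 1 with the mean of all probe sets. For the puromycin interaction it was 3 after quantile normalization, 2 with the cap, plate part as a block or the mean of all probe sets, and 0 with no trend, only the arrays of the comparison, vehicle of the same rows or without the arrays with few low values.

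Signs turned for CALD1 with ARA-C over days 3-5 after quantile normalization (0.14), for CALD1 with doxorubicin under the mean of all probe sets (0.0012), for CALD1 with puromycin under a common median (0.077), for VIM with puromycin at 24 h (0.010) and for VIM in ARA-C minus puromycin (-0.035) under a common median, and for ACTA2 with doxorubicin at 2 times the EC50 under the mean of all probe sets (0.15). The cause was not tested.

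Leaving out each array in turn gave, for days 3-5 at the EC50, 8 to 10 members with ARA-C, 7 to 9 with doxorubicin and 4 to 6 with puromycin. At 24 h it gave 1 to 3, 1 to 3 and 3 to 5, and at 2 times the EC50 8 to 10, 8 to 8 and 4 to 5. It gave 2 to 4 for ARA-C minus doxorubicin, 7 to 9 for ARA-C minus puromycin and 6 to 8 for doxorubicin minus puromycin, 4 to 6, 6 to 6 and 0 to 2 for the interactions, and 6 to 6 for the vehicle comparison.

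With the replicate block the counts over days 3-5 were 8, 7 and 4, and 1 for ARA-C at 24 h. Same-numbered arrays did not deviate together (median r -0.00225 over 523 pairs), so the numbers were not taken as pairs.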
